A study of Mus musculus with 4 samples.

Results

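Endothelial-like cells were found in the baseline library of cardiac cells sorted for CSF1R-EGFP. They were chosen by measured unique molecular identifiers (UMIs, each standing for 1 captured transcript) in droplet-based single-cell RNA sequencing. A cell with 500 to 40000 UMIs and more than 200 genes was a member when at least 3 of the 7 genes Fabp4, Cavin2, Ptprb, Cdh5, Gpihbp1, Adgrf5 and Flt1 had a UMI. This rule took 190 of 10238 baseline cells (1.86%, exact 95% binomial interval 1.60 to 2.14). The 4 libraries of the series together held 41533 cells within the same limits of UMIs and genes, members or not.

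All mice carried a CSF1R-EGFP reporter, in which the Csf1r promoter drives green fluorescent protein, and were 12 to 16 weeks old. The sort kept EGFP+ cells and excluded those stained for Ly6G, a neutrophil marker. The baseline group was 1 library pooled from 3 hearts without surgery. For infarction there were 3 libraries, each from 1 heart collected 7 days after ligation of the left coronary artery, with the remote zone of the ventricle removed before digestion. The EGFP transcript was not analysed here, and the reporter marks cells in which the Csf1r promoter is or was active, so the gate does not fix a cell's type.

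Endothelial cells line blood vessels. In the heart most of them belong to capillaries, which pass oxygen and fatty acids to the adjoining cardiomyocytes. Their identity is read from junction proteins such as VE-cadherin, receptors for vascular endothelial growth factor (VEGF) and angiopoietins, and caveolae, small membrane pits that are dense in capillaries. Macrophages of the heart, the cells the sort was aimed at, depend on CSF1R signalling and carry complement C1q, lysozyme and the phagocytic receptors.

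The deposited baseline table held 10314 cells and 71093963 UMIs, and the infarct tables held 10144 to 10804 cells each. The median cell had 6398.5 UMIs at baseline and 8469.5 to 8556.5 in the infarct libraries. The 190 endothelial-like cells were shallower than the rest of their library, with a median of 2984.5 UMIs and 1507 genes against 6437 UMIs in the other 10048 cells. The medians of the mitochondrial share of UMIs were similar, at 4.44% and 4.26%. At most 10% mitochondrial UMIs were found in 149 of the 190 members. Under that limit members were 1.64% of the baseline cells left. Between 26 and 34 cell barcodes were shared by each pair of libraries, and 2 of the members' barcodes also occurred in an infarct library.

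The rule genes are described first, since their values fixed the set and no test applies to them. Fabp4, which carries fatty acids inside the cell, reached 8396 CPM (a gene's summed UMIs over the summed UMIs of all genes but the mitochondrial ones, per 1000000) in endothelial-like cells, with an exact 95% Poisson interval of 8197 to 8599. It stood at 50.8 CPM in all other cells. It had a UMI in 97.4% of members, in 16.2% of the other cells and in 14.0% of 121 cells with 3 or more B cell markers. These intervals, here and below, cover counting error only and say nothing of the spread between animals.

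The other rule genes were far lower outside the set. Cavin2, a coat protein of caveolae, was at 1076 CPM against 2.59 CPM. Ptprb, a receptor phosphatase of endothelial junctions, was at 984 CPM against 0.928 CPM. Cdh5, which encodes VE-cadherin, was at 722 CPM against 1.18 CPM. Gpihbp1, which holds lipoprotein lipase on the capillary wall, was at 764 CPM against 0.838 CPM, and Adgrf5, an adhesion receptor, was at 688 CPM against 0.718 CPM. Flt1, a VEGF receptor, was at 1061 CPM against 15.6 CPM and was the only rule gene besides Fabp4 with a UMI in more than 5% of other cells (6.40%).

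The threshold of 3 rule genes separated cells that still carried many macrophage transcripts on both sides. The 284 cells with 2 rule genes had a median of 6360 UMIs, 0 of 16 endothelial identity genes and 3.11% of UMIs from a list of 20 macrophage genes. The 37 members with 3 rule genes had a median of 4348 UMIs, 1 identity gene and 2.29% macrophage UMIs. The 27 members with 4 rule genes had a median of 996 UMIs, 3 identity genes and 0.940% macrophage UMIs. The 72 members with all 7 rule genes had a median of 3770 UMIs, 12 identity genes and 0.259% macrophage UMIs. The label thus fitted the members with all 7 rule genes best, whereas those with 3 mostly lacked the endothelial identity genes and kept macrophage transcripts.

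The summed levels of the lists followed the same order. The 16 identity genes came to 84.5 CPM in all other cells, 413 CPM in members with 3 rule genes, 4588 CPM in the 81 members with 4 to 6 and 8073 CPM in the 72 members with 7. The 14 capillary genes came to 730 CPM, 939 CPM, 5107 CPM and 11019 CPM in the same order. The macrophage list ran the other way, from 50958 CPM in all other cells to 42883 CPM, 18985 CPM and 11369 CPM. Depth moved with these groups too, as the members with 4 to 6 rule genes had a median of 1360 UMIs, and its part in the order was not tested.

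**Figure D1:**
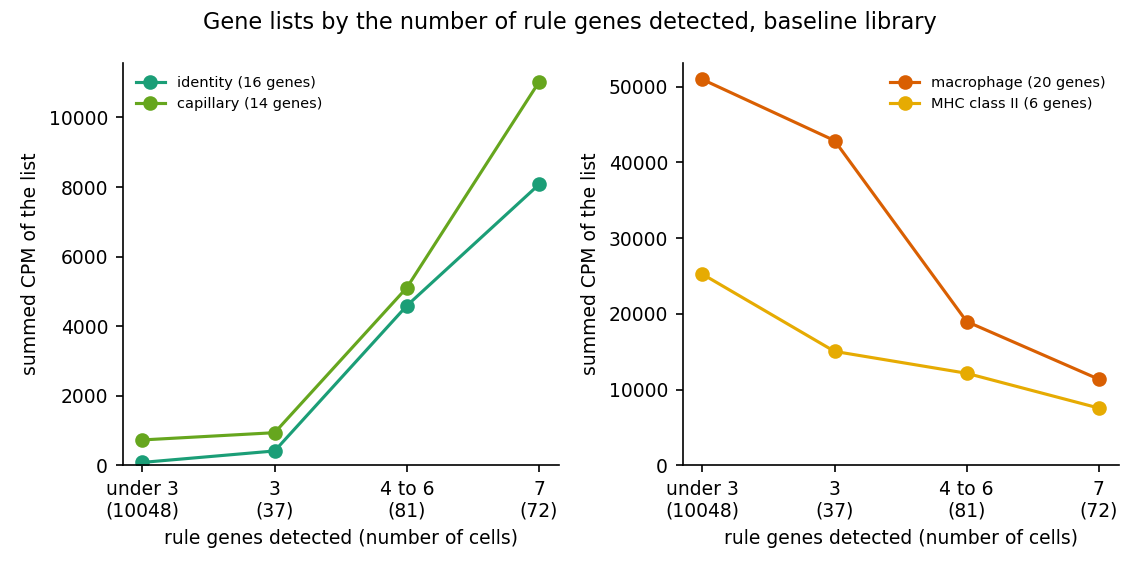
Summed CPM of 4 gene lists (vertical axes) in baseline cells grouped by how many of the 7 rule genes had a UMI (horizontal axis, with the number of cells); each point is 1 group of cells of the same library. Identity and capillary genes climb from 84.5 and 730 CPM in all other cells to 8073 and 11019 CPM in the 72 cells with all 7 rule genes, while macrophage genes go from 50958 to 11369 CPM.

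Across all genes with at least 10 CPM on either side, 361 of 9041 genes other than the rule genes were at least 4-fold higher in endothelial-like cells, which is 3.99% of those compared, and 1 was at least 4-fold lower, which is 0.0111%. Ratios were taken after adding 10 CPM to both sides, which understates the change of low genes. The count of lower genes depended strongly on the setting, with 51 when 4 rule genes were required, 65 with 5, 38 with 1 CPM added and 385, beside 577 higher genes, after thinning each cell to 1000 UMIs. The median log2 ratio over all 9041 genes was 0.05. These counts describe 1 library and carry no test, because the cells come from a single pool and were divided by their own expression.

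The leading genes outside the rule were endothelial ones. Ly6c1, a surface antigen of capillary endothelium, was at 966 CPM (interval 899 to 1036) in endothelial-like cells and 2.02 CPM in the others, a log2 ratio of 6.34. Reads of its close paralog Ly6c2, a monocyte gene, may be hard to separate from it, but Ly6c2 stood at 118 CPM against 144 CPM. Kdr, the main signalling receptor for VEGF, followed with 829 CPM (767 to 894) against 2.20 CPM, a log2 ratio of 6.10. Ly6c1 and Kdr each had a UMI in 67.9% of members, in 1.20% and 1.35% of the others, and in 0 of the 121 B cell marker cells.

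Further leading genes were Tm4sf1 (732 CPM against 1.20 CPM), a tetraspan membrane protein of endothelium, and Mgll (718 CPM against 1.78 CPM), which encodes monoacylglycerol lipase. Cav1, which forms caveolae, was at 719 CPM against 1.86 CPM. Matrix genes were also among the 15 with the highest ratios: Sparcl1 (720 CPM against 2.01 CPM), Timp3 (673 CPM against 2.63 CPM), Igfbp7 (662 CPM against 4.22 CPM), Sparc (701 CPM against 5.82 CPM) and the basement membrane collagen Col4a1 (801 CPM against 10.8 CPM). The remaining 5 were Cxcl12, Cldn5, Aqp1, Adgrl4 and Ly6a. Of these, Ly6a, which encodes the antigen Sca-1, was not particular to endothelial-like cells, since it had a UMI in 38.8% of the B cell marker cells.

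Of the 16 endothelial identity genes, 15 were at least 4-fold higher, beside 3.99% of all genes compared. Their median log2 ratio was 4.07, beside 0.05 for all genes compared. The 6 most abundant were Kdr, Cldn5 (539 CPM against 1.15 CPM), which seals tight junctions, Pecam1 (524 CPM against 7.04 CPM), which encodes the adhesion protein CD31, Adgrl4 and Egfl7 (both 455 CPM, against 0.629 and 2.71 CPM), and the sphingosine receptor gene S1pr1 (417 CPM against 43.1 CPM). Pecam1 was detected in 115 of 190 members (60.5%) and in 65 of the 72 with all 7 rule genes (90.3%). Pecam1 and S1pr1 were not confined to endothelial-like cells, with UMIs in 35.5% and 44.6% of the B cell marker cells. The 1 identity gene under 4-fold was the transcription factor gene Erg, with 24 UMIs in all members and a log2 ratio of 1.98. Erg is named after its value was seen.

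The capillary list gave 12 of 14 genes at least 4-fold higher, beside 3.99% of all genes compared. The median log2 ratio of the list was 4.06. Cd36, the fatty acid translocase of capillary endothelium, was the most abundant at 2110 CPM (2011 to 2213). Cd36 was not confined to endothelial-like cells, since it stood at 327 CPM in the others and had a UMI in 57.3% of them. Aqp1, a water channel of capillary endothelium, was at 702 CPM against 4.94 CPM, Rgcc at 515 CPM against 15.6 CPM and Cd300lg at 377 CPM against 20.1 CPM. The 2 genes that stayed under 4-fold were Lpl, for lipoprotein lipase (524 CPM against 331 CPM, log2 ratio 0.64), and Pparg, a lipid-sensing nuclear receptor (62.2 CPM against 25.9 CPM, log2 ratio 1.01, named after its value was seen). Both had UMIs in macrophage-rich cells too: Lpl in 41.2% and Pparg in 12.8% of cells outside the set.

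**Figure D2:**
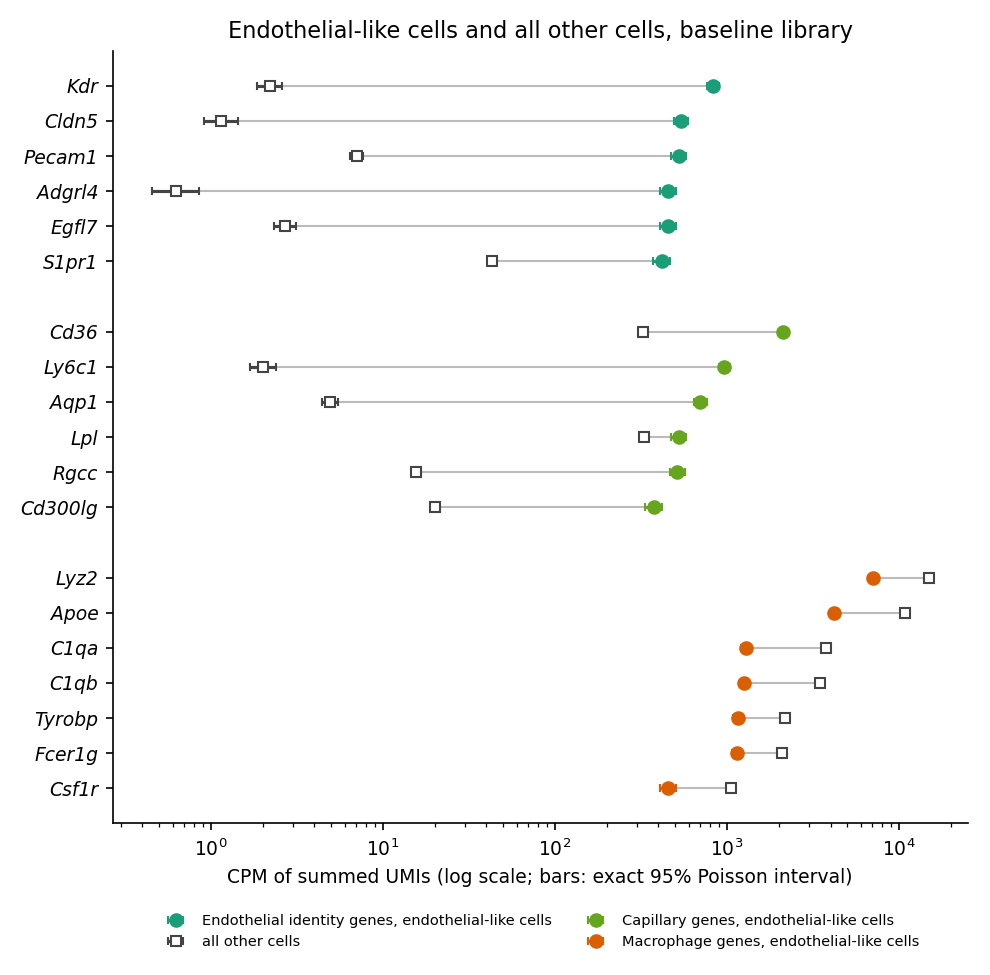
CPM of summed UMIs on a log axis for the most abundant genes of 3 lists, with filled points for the 190 endothelial-like cells and open squares for the other 10048 baseline cells; bars are exact 95% Poisson intervals. Kdr stands at 829 against 2.20 CPM and Lpl at 524 against 331 CPM, whereas every macrophage gene drawn lies to the left of its open square, Csf1r at 455 against 1050 CPM.

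In single cells the same genes were spread over many members. Capillary markers were found in 3 or more kinds per cell in 154 of 190 members (81.1%) and in 10.3% of the other cells. Among members with all 7 rule genes it was 71 of 72. Fabp4 ran to 242 UMIs in 1 cell, and no cell gave more than 3.59% of its 6748 UMIs. Kdr had a median of 6 UMIs in the 7-gene members and at most 25. For Ly6c1 the corresponding values were 7 and 28, and for Cd36 they were 15 and 52. These sums therefore did not rest on a few cells.

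The promoters of 3 VEGF and angiopoietin family receptor genes are shown because receptors of these families were among the genes that set the members apart. Kdr and Flt1 bind VEGF, and Tie1 (164 CPM in members against 0.389 CPM) is a partner of the angiopoietin receptor. Each sequence is the 250 bases before the gene's start in RefSeq on build GRCm38.p6, read 5′ to 3′ on the gene's own strand, which is the minus strand for all 3. Kdr lies at chr5:75978456-75978705, Tie1 at chr4:118489850-118490099 and Flt1 at chr5:147726012-147726261. Capitals mark GGAAG or its reverse complement CTTCC. These hold, on either strand, the GGAA core that ETS factors such as Erg, Fli1 and Ets1 are known to bind. GGAA before other letters is left unmarked. These genes were chosen after their values were seen, and because the table gave a single start for each.
Kdr: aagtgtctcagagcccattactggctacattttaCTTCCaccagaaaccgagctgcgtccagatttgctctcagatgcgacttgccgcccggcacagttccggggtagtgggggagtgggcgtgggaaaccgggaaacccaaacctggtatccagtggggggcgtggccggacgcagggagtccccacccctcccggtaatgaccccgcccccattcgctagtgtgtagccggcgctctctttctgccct
Tie1: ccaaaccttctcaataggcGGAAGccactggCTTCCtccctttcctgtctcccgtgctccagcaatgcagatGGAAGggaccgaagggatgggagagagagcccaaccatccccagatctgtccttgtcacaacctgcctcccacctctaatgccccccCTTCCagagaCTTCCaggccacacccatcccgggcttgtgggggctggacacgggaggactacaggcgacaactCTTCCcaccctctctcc
Flt1: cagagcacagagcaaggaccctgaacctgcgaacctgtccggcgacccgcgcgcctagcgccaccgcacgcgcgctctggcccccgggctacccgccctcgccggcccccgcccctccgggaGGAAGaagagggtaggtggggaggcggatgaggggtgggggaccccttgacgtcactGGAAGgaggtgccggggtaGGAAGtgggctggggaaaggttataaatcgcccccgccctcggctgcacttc
The motif occurred 1 time before Kdr, 6 times before Tie1 and 3 times before Flt1, and neither letter string can overlap the other. It was present in 64.1% of all 32851 promoters of the table at the same length, so its presence in these 3 is a description and not a site.

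Markers of vessel types other than capillaries were rarer. Of 11 arterial genes, 9 reached 10 CPM on either side and 6 were at least 4-fold higher, beside 3.99% of all genes compared. The arterial median log2 ratio was 2.56 over all 11 and 2.81 over the 9. The most abundant were Stmn2 (164 CPM against 0.359 CPM), the artery-specifying ligand gene Efnb2 (131 CPM against 1.83 CPM), Sox17 (114 CPM against 0.225 CPM) and the Notch ligand gene Dll4 (78.4 CPM against 0.329 CPM). In 44 members (23.2%) 3 or more arterial genes had a UMI, and 41 of these also had 3 or more capillary genes. Gja5, the connexin of arterial endothelium, had 10 UMIs in 5 members and 1 UMI in the other 10048 cells. All 5 members were in the group with 3 or more arterial genes, toward which a Gja5 UMI itself counts.

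Those 44 cells were compared, as a description, with the 113 members that had at least 3 capillary genes and fewer arterial ones. Of the 14 capillary genes 12 were higher in the arterial-marker cells, by any margin, and 2 were lower. The lower ones were Aqp1, at 555 CPM (470 to 650) against 968 CPM (877 to 1067), and Car4, at 77.1 CPM (47.7 to 118) against 128 CPM (96.0 to 167), with intervals that overlap. Among the higher ones Ly6c1 was at 1601 CPM (1454 to 1759) against 798 CPM (715 to 888) and Btnl9 at 646 CPM (554 to 749) against 230 CPM (186 to 280). Car4 and Btnl9, 2 further capillary genes, are named after their values were seen. Genes outside the capillary list differed as well. Kdr was higher in the arterial-marker cells, at 1205 CPM (1078 to 1342) against 772 CPM (690 to 860). Vwf was lower, at 51.4 CPM (28.1 to 86.3) against 94.7 CPM (67.6 to 129). No share over all genes was taken for this comparison. The arterial-marker cells were also deeper, with a median of 4650.5 UMIs and 7 rule genes. The 109 members that had capillary markers alone had a median of 1970 UMIs and 6 rule genes. The part of depth and of rule genes in these differences was not tested.

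Of 8 venous genes 5 reached 10 CPM on either side and 4 were at least 4-fold higher, beside 3.99% of all genes compared. The venous median log2 ratio was 1.20 over all 8 and 2.22 over the 5. Vwf, the clotting factor stored in endothelial granules, was at 85.9 CPM (66.8 to 109) against 6.78 CPM and had a UMI in 19 members. Ephb4, the venous receptor for Efnb2, was at 54.7 CPM against 0.0748 CPM. Plvap, which spans the diaphragms of fenestrated vessels, had 30 UMIs, of which 27 came from 1 cell. Only 7 members had 3 or more venous genes. Endocardial genes did not stand out: Npr3 had 1 UMI, and Nfatc1 was level at 75.9 CPM against 75.2 CPM.

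Lymphatic markers were rare, and the highest counts came from a single cell. Mmrn1 (58 UMIs) and Reln (15 UMIs) were found in 1 member, a cell of 13112 UMIs with 3 rule genes. Prox1, the defining transcription factor of lymphatic endothelium, had 3 UMIs in 2 of the 190 members. Flt4, a VEGF receptor known from lymphatic vessels and from growing capillaries, was more widely spread, with UMIs in 11.1% of members (38.6 CPM against 0.0898 CPM).

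The remaining endothelial lists showed which functions went with the set. All 6 genes of caveolae and nitric oxide synthesis were at least 4-fold higher, beside 3.99% of all genes compared. Their median log2 ratio was 3.94. The 6 were Cav1, Cavin1 (363 CPM against 3.61 CPM), Ehd2 (291 CPM against 1.00 CPM), Cav2 (272 CPM against 23.0 CPM), Nos3, the endothelial nitric oxide synthase (68.4 CPM against 0.763 CPM), and Cavin3 (56.0 CPM against 0.808 CPM).

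Of 24 angiogenic signalling genes, 20 reached 10 CPM on either side and 12 were at least 4-fold higher, beside 3.99% of all genes compared. Besides Kdr the 12 included Id1 (648 CPM against 16.3 CPM) and Id3 (378 CPM against 59.3 CPM), both targets of BMP signalling, and Eng (392 CPM against 25.2 CPM), a co-receptor of that pathway. Nrp1, a co-receptor for VEGF, was at 709 CPM against 242 CPM, a log2 ratio of 1.51, and Bmpr2 at 270 CPM against 94.2 CPM. Of the VEGF ligands, Vegfc was among the 12, at 52.3 CPM against 3.76 CPM with UMIs in 25 members, while Vegfa had 6 UMIs in all members (7.47 CPM) and stood at 4.95 CPM in the other cells. Both are named after their values were seen.

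Of 17 transcription factors of endothelium, 8 were at least 4-fold higher, beside 3.99% of all genes compared. The median log2 ratio of the 17 was 1.98. The hypoxia-responsive factor Epas1 had the highest ratio, at 443 CPM against 4.12 CPM, a log2 ratio of 5.00. Ets1 was at 351 CPM against 29.7 CPM but had 604 CPM in the B cell marker cells. The flow-responsive factors Klf2 (2032 CPM against 1136 CPM) and Klf4 (957 CPM against 665 CPM) were abundant on both sides, with log2 ratios of 0.83 and 0.52. Mef2c was lower, at 382 CPM against 482 CPM.

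Genes through which endothelium meets blood and leukocytes were mixed. Podxl, a sialomucin of the luminal surface, was at 387 CPM against 0.733 CPM. Cd34 was at 161 CPM against 3.31 CPM and Icam2 at 172 CPM against 10.1 CPM. Of 7 adhesion genes, 5 reached 10 CPM on either side and these 3 were at least 4-fold higher, beside 3.99% of all genes compared. Icam1 was near level at 117 CPM against 78.2 CPM, Vcam1 stood at 33.6 CPM against 31.1 CPM, and Sele had 0 UMIs in members, named after its value was seen. For haemostasis 4 of 6 genes reached 10 CPM on either side and 3 were at least 4-fold higher, beside 3.99% of all genes compared. These 3 were Thbd, Vwf and Plat. Thbd, which encodes the anticoagulant receptor thrombomodulin, was at 165 CPM against 33.0 CPM. Plat, the tissue plasminogen activator gene, was at 56.0 CPM against 0.509 CPM.

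Ligands that act on macrophages and other leukocytes were examined as a list of 6. Cxcl12, the ligand of CXCR4, was at 773 CPM (713 to 836) in members and 5.63 CPM in other cells, and it had a UMI in 118 members (62.1%) and in 64 of the 72 with all 7 rule genes. Kitl, which encodes stem cell factor, was at 506 CPM (458 to 558) against 49.7 CPM. Csf1, a ligand of CSF1R, was low, at 32.4 CPM against 4.70 CPM, a log2 ratio of 1.53. Its other ligand gene, Il34, had 0 UMIs in members and is named after its value was seen. Ccl2 was lower in members, at 121 CPM against 317 CPM.

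Among the fatty acid binding proteins, 1 of 4 was at least 4-fold higher, Fabp4, beside 3.99% of all genes compared. Fabp4 is a rule gene, so its value helped to fix the set and is not a result about the list. Fabp5 was at 551 CPM against 172 CPM, a log2 ratio of 1.63. Fabp3, the cardiomyocyte form, stood at 11.2 CPM against 8.23 CPM, and Fabp7 had 0 UMIs in members.

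Integrins, the matrix receptors that the study centred on, were mostly low or similar on both sides. Of 26 integrin genes 13 reached 10 CPM on either side, and 2 were at least 4-fold higher, beside 3.99% of all genes compared. The median log2 ratio was -0.01 over all 26 and -0.23 over the 13. The 2 were Itga1 (413 CPM against 12.6 CPM, log2 ratio 4.22), which binds collagen and basement membrane, and Itga6 (367 CPM against 64.0 CPM, log2 ratio 2.35), a laminin receptor subunit. Their partner Itgb1 was abundant on both sides, at 752 CPM against 521 CPM. Itga5, the fibronectin receptor subunit, had 29 UMIs in 22 members, 36.1 CPM (24.2 to 51.8) against 27.2 CPM (25.9 to 28.5). Of the leukocyte integrins, Itga4 was at 330 CPM against 429 CPM, Itgb2 at 218 CPM against 237 CPM and Itgal at 177 CPM against 141 CPM.

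Macrophage transcripts were present but reduced in endothelial-like cells. All 20 genes of the macrophage list were lower than in the other cells, by any margin. Their median log2 ratio was -1.19, beside 0.05 for all genes compared. The log2 ratios ran from -1.64 (Pf4) to -0.50 (Mertk, named after its value was seen). Of the 20 genes, 0 were at least 4-fold lower, beside 0.0111% of all genes compared. Summed, the list stood at 22393 CPM, 43.9% of its 50958 CPM in the other cells. Lyz2, the lysozyme gene, was at 7048 CPM against 14880 CPM, Apoe at 4189 CPM against 10796 CPM, C1qa at 1290 CPM against 3748 CPM and C1qb at 1260 CPM against 3498 CPM. Csf1r itself was at 455 CPM (410 to 505) against 1050 CPM, a log2 ratio of -1.19.

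The share of members with a Csf1r UMI was 32.6% (62 of 190, interval 26.0 to 39.8), against 90.7% of the other cells. It was 64.9% in members with 3 rule genes (24 of 37), 23.5% in those with 4 to 6 (19 of 81) and 26.4% in those with 7 (19 of 72). The 284 cells with 2 rule genes had one in 89.8%. In 75 of the 190 members no UMI of Csf1r, Adgre1, C1qa or Cd68, all 4 standard macrophage markers, was found, and this held for 31 of the 72 with all 7 rule genes.

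The macrophage list was also read in the cells with 3 or more B cell markers. None of the 121 was a member. Their macrophage UMIs had a median of 0.606% per cell, near the 0.581% (quartiles 0.254 and 1.58) of endothelial-like cells and below the 4.42% of all cells outside the set. Summed over cells, their macrophage list stood at 53.6% of the level outside the set, above the 43.9% of members. Its single genes ranged from 44.5% (Pf4) to 107% (Ptprc), so not every gene of the list was reduced in these cells. The B cell marker cells had a median depth of 4270 UMIs. Of them 35 (28.9%) were among the cells with the highest Scrublet scores, against 8.07% of all cells outside the set. These scores measure likeness to simulated doublets, and their part in these levels was not tested.

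Depth was made equal by thinning each cell to 1000 UMIs, which left out 553 shallower baseline cells, 38 of them members. At this depth Csf1r had a UMI in 33 of 152 members (21.7%, interval 15.4 to 29.1), in 26 of 119 B cell marker cells (21.8%, 14.8 to 30.4) and in 61.8% of the other cells. C1qa had one in 32.9%, 35.3% and 70.1% of these groups, and Lyz2 in 65.1%, 60.5% and 96.1%. For these 3 genes the shares in members were close to those of the B cell marker cells. This did not hold for the whole list. Mrc1 had a UMI in 13.2% of members and 24.4% of B cell marker cells, Cd14 in 8.55% and 17.6%, and Ctss in 27.0% and 57.1%. Fcer1g (37.5% and 31.1%) and Mertk (3.95% and 1.68%) went the other way. These genes are named after their values were seen. With members chosen again after thinning, Csf1r had a UMI in 10.6% of 113 members. Whether the members made these transcripts themselves was not tested. High Scrublet scores were present in 28 of the 190 members (14.7%) and 35 of the 121 B cell marker cells (28.9%), against 8.07% of all cells outside the set. The part of doublets was not tested. Kdr, by contrast, had a UMI in 52.6% of members, 0 of 119 B cell marker cells, which allows a share of up to 3.05% (exact interval), and 0.147% of the others. For Itga5 the shares were 0.658%, 0% and 2.62%, too few UMIs to place members above or below the rest.

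**Figure D3:**
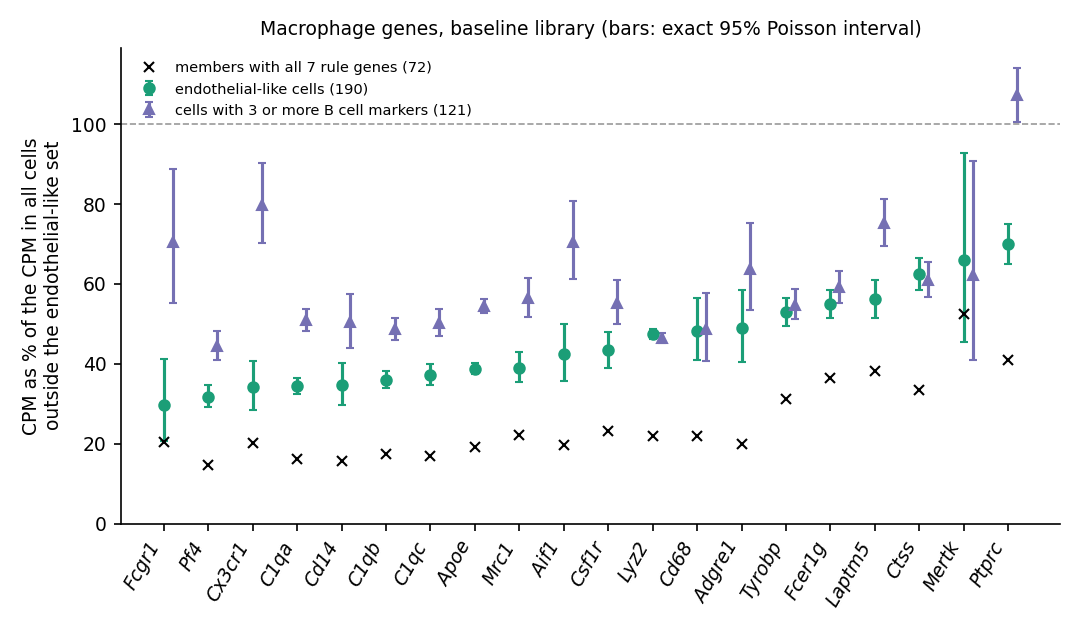
Level of each of the 20 macrophage genes as a percent of its CPM in all cells outside the endothelial-like set (dashed line at 100%), for the 190 members, the 121 cells with 3 or more B cell markers and the 72 members with all 7 rule genes (crosses, drawn without bars); bars on the first 2 are exact 95% Poisson intervals. Members range from 29.7% (Fcgr1) to 69.9% (Ptprc), and the 7-gene members lie from 14.6% (Pf4) to 52.4% (Mertk).

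Macrophage transcripts were unevenly spread over the members. In 40 members they made up at least 2% of UMIs, and in 150 they made up less. The 40 were deep cells, with a median of 7624.5 UMIs, 2 identity genes and 3.5 rule genes, and 16 of them (40%) were among the highest Scrublet scores. The 150 had a median of 2020 UMIs, 8 identity genes and 6 rule genes, and 12 of them (8%) had such scores. The cut at 2% was set after the data were seen, and 22 members lay within 0.5 percentage points of it.

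A small group combined both programs. In 11 members at least 8 identity genes were found together with at least 2% macrophage UMIs. Their median depth was 11731 UMIs, and 10 of the 11 were among the highest Scrublet scores. In the 76 members with at least 8 identity genes and less than 2% macrophage UMIs, the median depth was 3384 UMIs and 8 had such scores. Over the 190 members the percent of identity UMIs and the percent of macrophage UMIs were inversely ordered (Spearman's rho -0.68, n = 190 cells of 1 library, given as a description because the 2 percents share a denominator).

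**Figure D4:**
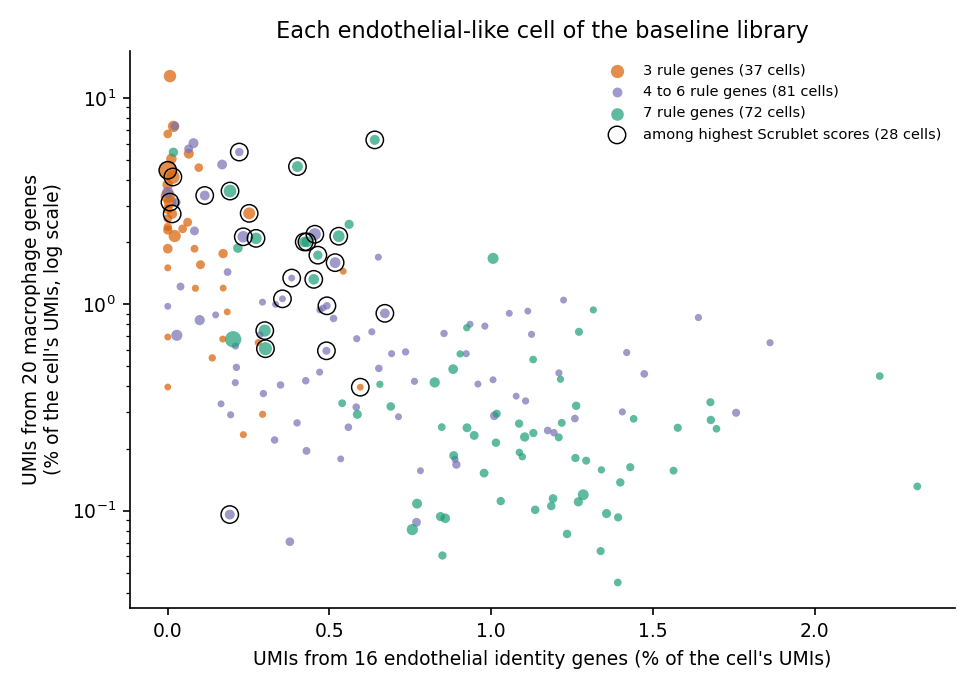
Each point is 1 of the 190 endothelial-like cells, placed by the percent of its UMIs from 16 identity genes (horizontal) and from 20 macrophage genes (vertical, log scale); colour gives the number of rule genes, size the depth, and black circles mark the 28 members among the highest Scrublet scores. Cells with all 7 rule genes lie mostly at the lower right, with a median of 0.259% macrophage UMIs, and cells with 3 at the upper left, with a median of 2.29%.

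Other myeloid lists moved with the macrophage list. The 6 MHC class II genes came to 10881 CPM in members and 25249 CPM in the others, led by Cd74 at 5042 CPM against 11690 CPM. Resident macrophage genes came to 1476 CPM against 3902 CPM. Among them F13a1 was at 452 CPM against 1218 CPM, Lyve1 at 148 CPM against 416 CPM and Retnla at 233 CPM against 847 CPM, with 86 of the 187 Retnla UMIs in 1 member. Myeloid transcription factors came to 2215 CPM against 4025 CPM, among them Spi1 at 284 CPM against 490 CPM. Monocyte genes differed less, with a median log2 ratio of -0.33.

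The 10 genes with the lowest ratios held B cell, erythroid and macrophage genes. Igkc, an immunoglobulin light chain gene, was the 1 gene at least 4-fold lower, with 1 UMI in members (1.24 CPM) against 51.2 CPM. Of its 3423 UMIs outside the set, 3312 were in the 121 cells with 3 or more B cell markers, so this contrast was mostly with those cells. Cd79b (2.49 CPM against 30.7 CPM) and the haemoglobin gene Hbb-bs (3.73 CPM against 41.9 CPM) were low in members too. The others were the macrophage-rich genes Retnla, Gpr34 (24.9 CPM against 109 CPM), Tmem37 (21.2 CPM against 94.7 CPM), Fxyd2, Rgs1, Pf4 and Slc9a9. All of these kept UMIs in members, Pf4 in 32.6% of them.

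Markers of other heart cells were scarce in members. Fibroblast genes came to 39.8 CPM against 21.6 CPM, with Pdgfra at 4 UMIs and Tcf21, Dpt and Col3a1 at 0. The 26 Dcn UMIs included 21 from 1 cell. Mural genes came to 162 CPM against 7.42 CPM, but 107 of the 113 Rgs5 UMIs came from 1 cell of 7306 UMIs with 5 rule genes, which was the only member with 3 or more mural markers. Cardiomyocyte genes came to 94.6 CPM against 77.2 CPM, with Myh6 at 8 UMIs. T and NK cell genes came to 3.73 CPM, with Cd3e, Cd3d, Cd3g and Nkg7 at 0. Platelet genes came to 6.22 CPM against 5.79 CPM.

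Cells selected by the same rule were rare in the infarct libraries. There were 17 of 10396 cells in infarct replicate 1 (0.164%, interval 0.0953 to 0.262), 17 of 10782 in replicate 2 (0.158%, 0.0919 to 0.252) and 12 of 10117 in replicate 3 (0.119%, 0.0613 to 0.207). The infarct mean was 0.147% ± 0.0244 (SD, n = 3), and the baseline share of 1.86% was 12.7 times that mean and 11.3 times the highest infarct library. After thinning every cell to 1000 UMIs the shares were 1.17% at baseline and 0.0626% ± 0.0115 (SD, n = 3) in the infarct libraries, 18.6 times lower. With 1 baseline library no test was possible. The shares are of cells that passed an EGFP+ gate, and infarction, the removal of the remote zone and the pooling of hearts cannot be told apart.

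**Figure D5:**
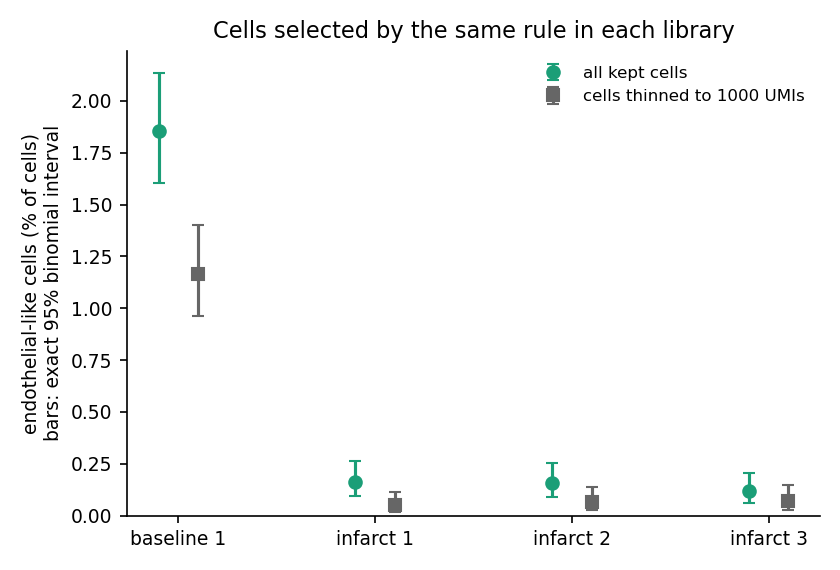
Percent of cells selected by the rule in each library (horizontal axis), for all kept cells and after thinning to 1000 UMIs; bars are exact 95% binomial intervals. The baseline library stands at 1.86% and 1.17%, and the 3 infarct libraries lie between 0.0497% and 0.164%.

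The 46 infarct cells had lower levels of capillary genes, and of endothelial identity genes, than the 190 of baseline. Their capillary list came to 1440, 2230 and 2769 CPM in replicates 1 to 3, a mean of 2146 CPM ± 669 (SD, n = 3), against 6617 CPM at baseline. Cd36 was at 473, 775 and 613 CPM against 2110 CPM, and Aqp1 at 146, 61.3 and 204 CPM against 702 CPM. Kdr was at 278, 312 and 460 CPM against 829 CPM. All 3 infarct libraries lay below baseline for each of these. The same held for the identity list, at 2977, 2598 and 4466 CPM against 4982 CPM, so the lower level was not particular to capillary genes. It did not hold for the arterial list (723, 385 and 777 CPM against 709 CPM) or the venous list (529, 424 and 245 CPM against 253 CPM). No share of all genes below baseline was taken.

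Not every endothelial gene followed this order. Pecam1 was at 383, 290 and 797 CPM in the infarct libraries and 524 CPM at baseline, so the baseline value lay within their range. The rule genes chose the cells in every library, and their levels are given only as a description. Cdh5 was at 647, 340 and 1104 CPM against 722 CPM, whereas the other 6 rule genes were below baseline in all 3 infarct libraries. Cavin3 was higher in all 3 infarct libraries, at 257, 412 and 215 CPM against 56.0 CPM, and Plvap at 153, 290 and 133 CPM against 37.3 CPM. The macrophage list came to 31386 CPM ± 1986 (SD, n = 3) in infarct members against 22393 CPM at baseline, and to 78574 CPM ± 9468 against 50958 CPM in the other cells. Of the infarct members 8 of 17, 6 of 17 and 2 of 12 had only 3 rule genes, against 37 of 190 at baseline, and with 12 to 17 cells each these levels rest on few cells.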

How the data were processed

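The authors deposited unnormalised UMI counts for each library, obtained from droplet libraries with Cell Ranger on the mouse build mm10. The file headers and the methods name version 3.1.0, and the submitters' processing notes name 3.0.1. The counts were used as deposited, without integration of libraries. Cells with 500 to 40000 UMIs and more than 200 genes were kept. UMIs were summed over cells and divided by all UMIs but the mitochondrial ones to give CPM, with exact Poisson intervals. Shares of cells had exact binomial (Clopper-Pearson) intervals. Log2 ratios used 10 CPM added to both sides, for genes with at least 10 CPM on either side. The median of a list covers all its genes, also those under this minimum, unless another number is named. No test was run, because the baseline group was 1 library and the members were chosen by expression. The members and gene lists were chosen with earlier results of these data known.

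Genes were named by rule: the 7 rule genes, the 15 highest and 10 lowest ratios (leaving out mitochondrial, X-inactivation, Y-linked and unnamed genes), and up to 6 of each list with the highest CPM in members, plus a few fixed genes. Doublets were scored within each library with Scrublet in scanpy, and the highest 8.19% of baseline cells by score were marked but kept. Cells were thinned to 1000 UMIs to compare shares at equal depth. Alternatives changed the number of rule genes needed, the minimum depth, the mitochondrial limit, the added CPM, the doublets, the thinning and the averaging. Python 3.11.15, numpy 2.4.6, scipy 1.17.1, pandas 2.3.3, scanpy 1.11.5 and matplotlib 3.10.9 were used, and the scripts were tested on simulated data. The values of 1 gene of the lists are not reported here.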

Additional observations from a re-analysis of the deposited data

How the results depend on the processing

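Of 67 alternatives, 33 left a result within its margin and 34 moved it. A reversed direction could be scored only for the 2 median log2 ratios, with 9 alternatives each, and 0 were reversed. The margin was the counting interval, 1 SD over the infarct libraries or a factor of 1.5. That factor held for counts, for the median macrophage percent and for the ratios behind the log2 medians. Members were 4.63% of baseline cells when 2 rule genes sufficed, 1.49% with 4, 1.23% with 5, 1.17% after thinning and 1.57% from 1000 UMIs per cell. The 361 genes at least 4-fold higher became 108 with 2 rule genes, 577 after thinning and 693 with 1 CPM added. The 1 gene at least 4-fold lower became 51 with 4 rule genes, 65 with 5, 385 after thinning, 2 with at most 10% mitochondrial UMIs, 2 from 1000 UMIs, 11 without high Scrublet scores and 38 with 1 CPM added. The identity median of 4.07 became 2.45 with 2 rule genes, 4.96 after thinning and 6.87 with 1 CPM added. The macrophage median of -1.19 became -1.82 with 4 rule genes, -2.04 with 5, -2.71 after thinning and -1.78 as a mean over cells. The share of members with a Csf1r UMI, 32.6%, became 66.9% with 2 rule genes, 24.8% with 4, 24.6% with 5, 10.6% after thinning, 40.8% from 1000 UMIs and 25.3% without high Scrublet scores. The median percent of macrophage UMIs, 0.581, became 2.23 with 2 rule genes and 0.300 after thinning. The infarct share of 0.147% became 0.698% with 2 rule genes, 0.0958% with 4, 0.0768% with 5 and 0.0626% after thinning, and leaving out each infarct library gave 0.138% to 0.161%. The thinned settings chose members again at the lower depth, so they hold fewer cells. No paired analysis was possible because no result came from a test and the groups share only 1 replicate number.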
